A study of Mus musculus with 18 samples.

Results

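The change of the Tim-4low peritoneal macrophage between mice with a tumor given anti-Tim-4 antibody and mice without a tumor was taken from 6 of the 18 libraries of the series, 3 in each group, by the labels of the sort, the tumor and the treatment. Macrophages were sorted from the mouse peritoneal cavity as Tim-4low or Tim-4high, and their RNA was sequenced in bulk. The anti-Tim-4 mice carried MC38-LG, a derivative of the MC38 mouse colon carcinoma line, in the peritoneal cavity and were given the antibody at 7 days with harvest at 10 days. The isotype mice carried the same tumor, received an isotype control antibody (no day stated) and were harvested at 10 days. The no-tumor mice had no challenge and no treatment and were harvested on the same day, so the presence of a tumor and the injection of an antibody cannot be told apart against them. No strain, age, sex or number of mice per library is stated, and nothing says that the 3 libraries of a group came from separate animals, so the tests see the variation among these libraries alone, part of which may be technical. By its title the series asks how Tim-4+ macrophages of body cavities bear on CD8+ T cells. The comparison here addresses which part of the tumor-bearing state remains and which part is undone under the antibody in the cells that carry little of its target.

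Tim-4, encoded by Timd4, is a receptor for phosphatidylserine, the lipid that dying cells expose, and marks long-resident macrophages of the body cavities. The cavity holds large macrophages that depend on the transcription factor GATA6 and carry much F4/80 (Adgre1), and a smaller monocyte-derived population with MHC class II, Ccr2 and Irf4. The Tim-4low gate can hold the smaller population, newly recruited monocyte-derived cells and large macrophages with little Tim-4. The antibody recognises the same protein that the sort used.

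The 9 Tim-4low libraries held 25533700 to 34110392 estimated gene counts. Levels are in CPM, counts per library scaled to a common depth with trimmed-mean-of-M-values (TMM) factors. Differences are log2 fold changes ± standard error from edgeR's quasi-likelihood test, with p-values adjusted over 16609 genes (Benjamini-Hochberg) and called at an adjusted p under 0.05. Timd4 (ENSMUSG00000055546, chromosome 11, 46810800 to 46844332, mm10), the sort gene, had 29, 23.1 and 11.9 CPM in the anti-Tim-4 Tim-4low libraries 1 to 3 and 108, 9.52 and 9.13 CPM in the no-tumor ones. No-tumor library 1 stood high and the groups overlapped (-0.99 ± 0.80, adjusted p = 0.332). Without that library the difference was 1.21 (adjusted p = 0.131). The 12 macrophage identity markers, all detected, summed to 19700, 19700 and 22800 CPM with anti-Tim-4 and to 28100, 30800 and 31500 CPM without a tumor, so every library held much RNA of these markers. The typical marker did not fall with this sum. Of the 12, 6 were called higher and 1 lower over no tumor, with a median log2 fold change of 0.33. B cell markers (all 11 tested) summed to 16.9, 12.6 and 22.6 CPM with anti-Tim-4, 18.4, 18.9 and 84 CPM with isotype and 1750, 184 and 241 CPM without a tumor. Mast cell markers (5 of 7 tested) summed to 1.05, 2.45 and 2.29 CPM with anti-Tim-4 and 135, 3.88 and 5.46 CPM without a tumor. T cell markers summed to 23.5, 31.8 and 22.6 CPM with anti-Tim-4, 33.2, 26.3 and 152 CPM with isotype and 129, 52.4 and 72.3 CPM without a tumor, lower in every anti-Tim-4 than in every no-tumor library. The typical T cell marker did not fall with this sum. Of 14 tested, 1 was called higher and 1 lower over no tumor, with a median log2 fold change of 0.96. The NK cell marker sum was higher than without a tumor, at 11.6, 14 and 9.85 CPM with anti-Tim-4, 18.1, 12.9 and 87.1 CPM with isotype and 2.86, 1.5 and 0.551 CPM without a tumor. Of 8 tested NK cell markers, 3 were called higher and 0 lower over no tumor (median 2.25). The part of these cells in the results was not tested. In bulk RNA, fewer cells of a type and less RNA per cell cannot be told apart.

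Between the anti-Tim-4 tumor and no tumor, 7755 genes were called, 46.7% of those tested, with 3954 higher (23.8%) and 3801 lower (22.9%). Over all tested genes the 2 groups of 3 libraries did not overlap for 53.2%. Of the called genes, 1312 rose and 1384 fell by over 2-fold. The isotype tumor against no tumor gave 8273 calls (49.8%), 4185 higher (25.2%) and 4088 lower (24.6%). Both comparisons use the same no-tumor libraries, so their likeness is not evidence of its own, and the difference between the antibodies was tested directly. That test called 54 genes (0.325%), 37 higher (0.223%) and 17 lower (0.102%) with anti-Tim-4, and 2046 genes had an unadjusted p under 0.05. DESeq2 called 286 for the same difference, the 9 Tim-4low libraries fitted alone in edgeR called 0 (with 1763 genes at an unadjusted p under 0.05), and leaving out 1 library at a time called 2 to 40. For 12025 genes (72.4%) the 95% interval of the difference between the antibodies lay within 2-fold either way, and for 4576 it included a change of 2-fold. Over all tested genes the median log2 fold change was -0.03 for anti-Tim-4 over no tumor, -0.02 for isotype over no tumor and -0.02 for anti-Tim-4 over isotype.

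**Figure D1:**
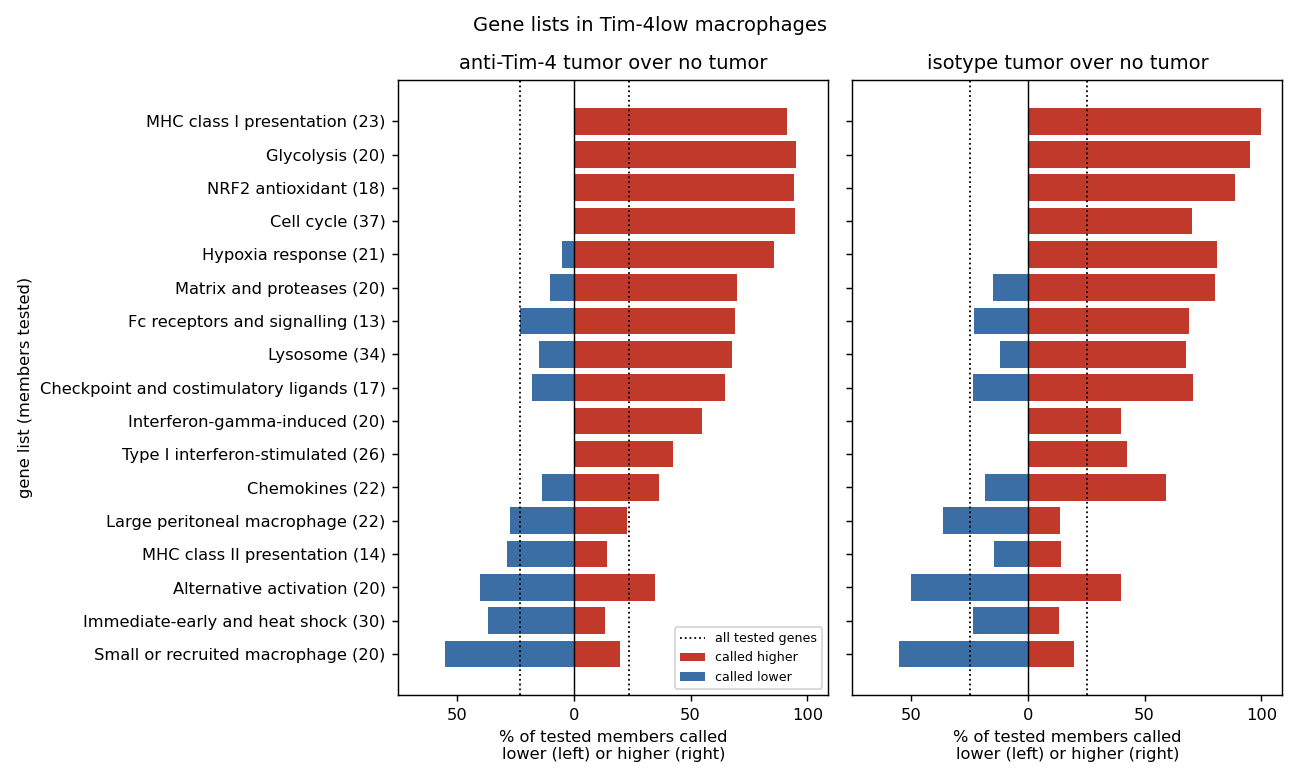
Percent of the tested members of 17 gene lists called higher (red, right) or lower (blue, left) in Tim-4low macrophages, for anti-Tim-4 tumor over no tumor (left panel) and isotype tumor over no tumor (right panel), with dotted lines at the share of all tested genes. MHC class I, glycolysis, NRF2 and cell cycle members lie far right of the dotted line under anti-Tim-4, and members of the small or recruited macrophage list lie mostly to the left.

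Several genes of arginine use, of a list with 7 of 16 higher and 2 lower, remained above the no-tumor level under the antibody. Arg1, arginase 1, which splits arginine to ornithine and urea (ENSMUSG00000019987, chromosome 10, 24915221 to 24927484), had 7273, 7412 and 6958 CPM with anti-Tim-4, 7414, 8428 and 7585 CPM with isotype and 199, 77.5 and 40.6 CPM without a tumor. All tumor libraries lay far above the no-tumor ones. Its log2 fold change was 6.09 ± 0.43 over no tumor (adjusted p = 6.09e-08) and 6.95 without no-tumor library 1, which held the most of it. Against isotype the difference was -0.11 ± 0.35 (95% interval -0.85 to 0.62, adjusted p = 0.92). Slc7a2, the arginine transporter CAT2, had 1947, 1474 and 1149 CPM with anti-Tim-4 and 109, 118 and 77.5 CPM without a tumor, with no overlap (3.91 ± 0.20, adjusted p = 2.34e-09). Nos2, the inducible nitric oxide synthase that also uses arginine, had 24.6, 53.1 and 43.6 CPM with anti-Tim-4 against 0.837, 0.845 and 0.138 CPM without a tumor (6.10 ± 0.71, adjusted p = 7.05e-06). Odc1, the ornithine decarboxylase that opens polyamine synthesis, had 57.4, 63.8 and 47.4 CPM with anti-Tim-4, 71.8, 77.6 and 74.8 CPM with isotype and 31.9, 24 and 26.4 CPM without a tumor. Its anti-Tim-4 libraries lay between the other groups without overlap, it passed over no tumor (1.04 ± 0.10, adjusted p = 1.63e-06), and it did not pass against isotype (-0.41 ± 0.10, adjusted p = 0.105). Ass1, which rebuilds arginine from citrulline, rose by 2.20 ± 0.49 (adjusted p = 0.00177) and by 3.36 without no-tumor library 1. Of the 16 tested members of the arginine and polyamine list, 7 rose and 2 (Sms and Amd1, of polyamine synthesis) fell, against 10 and 2 with isotype. All tested genes rose in 23.8% and fell in 22.9% with anti-Tim-4. The 2 falls came to 1 without anti-Tim-4 library 1 or 2, or no-tumor library 2 or 3.

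Glycolysis genes rose, with a single exception. Of 20 tested members, 19 were called higher and 0 lower with anti-Tim-4, with a median log2 fold change of 1.52 (all genes -0.03), and 19 and 0 with isotype (median 1.55). Aldoa, aldolase, had 2035, 2394 and 1935 CPM with anti-Tim-4 and 443, 429 and 412 CPM without a tumor (2.31 ± 0.12, adjusted p = 2.54e-09). Pgk1, phosphoglycerate kinase, had 281, 384 and 343 CPM with anti-Tim-4, 346, 409.9 and 397 CPM with isotype and 63.5, 71.3 and 70.2 CPM without a tumor (2.30 ± 0.12 over no tumor, adjusted p = 3.9e-09). Its tumor groups overlapped and lay far above the no-tumor libraries. Hk2, the inducible hexokinase that traps glucose, had 265, 273 and 272 CPM with anti-Tim-4 and 70.5, 64.8 and 74.1 CPM without a tumor (1.95 ± 0.10, adjusted p = 2.64e-09). Pfkl, of the phosphofructokinase step, and Pgam1, a mutase further down the pathway, rose by 1.55 ± 0.07 and 2.12 ± 0.12 (adjusted p = 1.73e-09 and 4.6e-09). The 1 member that did not pass was Slc2a3, a glucose transporter (-0.48 ± 0.85, adjusted p = 0.669). None of the 20 passed in edgeR between anti-Tim-4 and isotype (median difference -0.09), 1 had an unadjusted p under 0.05, and DESeq2 called 0 higher and 0 lower.

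Genes of the response to low oxygen followed the same course, with 18 of 21 tested members higher and 1 (Adm, the vasodilator adrenomedullin) lower with anti-Tim-4 (median 1.39), against 17 higher and 0 lower with isotype (median 1.44). The call of Adm was lost without any 1 anti-Tim-4 library and without no-tumor library 1. Vegfa, the vascular growth factor (ENSMUSG00000023951, chromosome 17, 46016993 to 46032369), had 42.3, 47 and 39 CPM with anti-Tim-4, 68.3, 72.1 and 70.6 CPM with isotype and 3.28, 1.88 and 2.48 CPM without a tumor. The 3 groups did not overlap, with the anti-Tim-4 libraries below the isotype ones and far above no tumor. Vegfa rose by 4.08 ± 0.21 over no tumor (adjusted p = 3.15e-09), and its difference from isotype did not pass (-0.72 ± 0.18, 95% interval -1.09 to -0.34, adjusted p = 0.105). Over 15 alternative settings that difference ran from -0.79 to -0.65 and passed in 1. Hilpda, a lipid droplet protein, had 35.1, 32.5 and 19.6 CPM with anti-Tim-4, 44.5, 48.6 and 47 CPM with isotype and 5.83, 4.76 and 4.38 CPM without a tumor. It rose by 2.55 ± 0.19 over no tumor (adjusted p = 1.25e-07) and, like Vegfa, lay below every isotype library without passing that test (-0.68 ± 0.17, adjusted p = 0.113). Bnip3, a mitophagy receptor, had 52.1, 73.9 and 73.3 CPM with anti-Tim-4 and 10.1, 9.71 and 9.32 CPM without a tumor (2.78 ± 0.17, adjusted p = 1.19e-08). Mif, the macrophage migration inhibitory factor, and Ero1l, an oxidase of the endoplasmic reticulum, rose by 2.56 ± 0.13 and 2.02 ± 0.11 (adjusted p = 2.05e-09 and 6.65e-09).

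**Figure D2:**
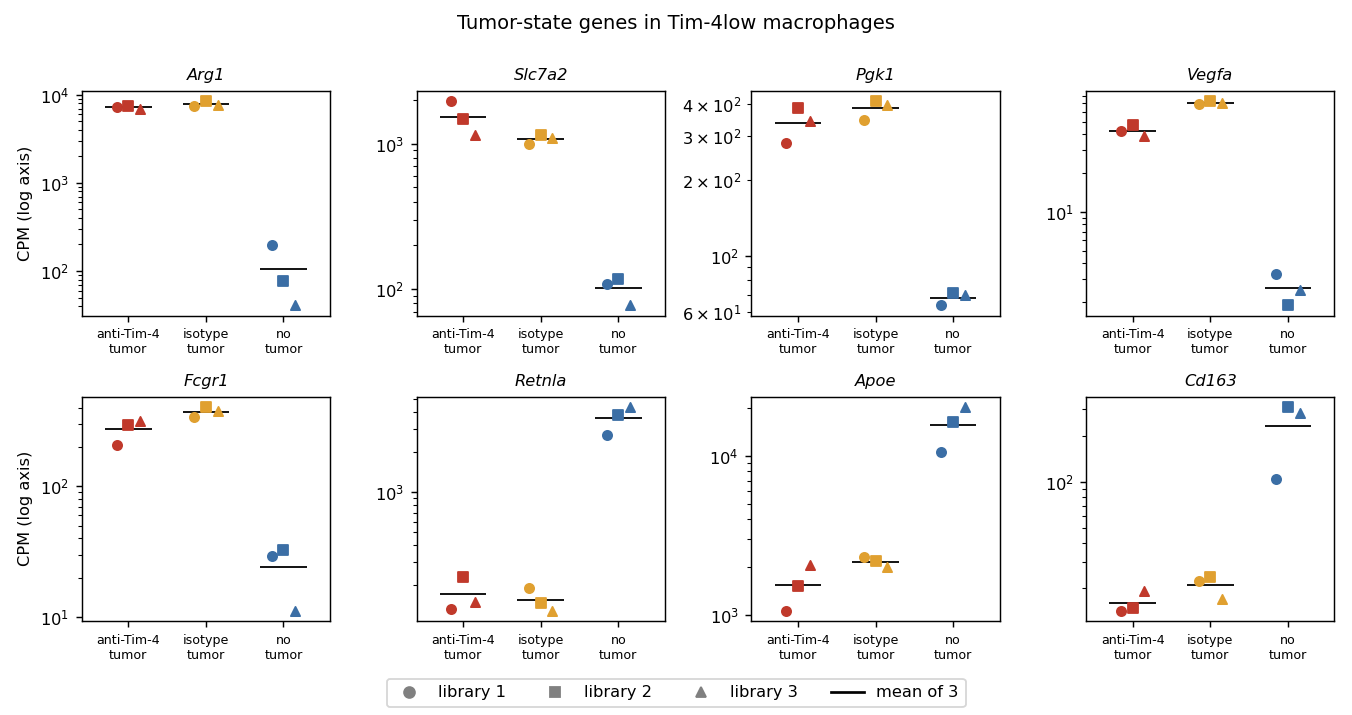
CPM on log axes of 8 genes in each Tim-4low library, with anti-Tim-4 tumor, isotype tumor and no tumor from left to right, a symbol per library number and a bar at the mean of 3. Arg1, Slc7a2, Pgk1, Vegfa and Fcgr1 are high and Retnla, Apoe and Cd163 low in all 6 tumor libraries against no tumor. The anti-Tim-4 libraries of Vegfa, at 39.0 to 47.0 CPM, lie apart from both the isotype and the no-tumor ones.

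The promoters of 3 of these genes and of an interferon-stimulated gene are shown because members of their lists rose together. Each is 300 bases from RefSeq on GRCm38.p6, from 250 before to 50 after the annotated start, read along the gene's strand, with the motif matches in capitals.
Pgk1, chrX:106186850-106187149, plus strand: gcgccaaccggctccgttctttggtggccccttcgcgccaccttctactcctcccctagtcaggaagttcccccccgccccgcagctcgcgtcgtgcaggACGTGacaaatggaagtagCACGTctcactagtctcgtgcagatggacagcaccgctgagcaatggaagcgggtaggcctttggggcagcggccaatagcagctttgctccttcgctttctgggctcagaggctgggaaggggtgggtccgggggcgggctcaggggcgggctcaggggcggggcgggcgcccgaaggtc
Hk2, chr6:82774405-82774704, minus strand: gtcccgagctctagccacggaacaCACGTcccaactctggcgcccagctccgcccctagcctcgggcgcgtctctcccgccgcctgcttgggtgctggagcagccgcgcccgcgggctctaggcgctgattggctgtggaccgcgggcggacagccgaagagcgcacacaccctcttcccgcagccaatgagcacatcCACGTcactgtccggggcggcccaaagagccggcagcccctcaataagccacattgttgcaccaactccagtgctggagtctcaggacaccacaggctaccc
Bnip3, chr7:138909457-138909756, minus strand: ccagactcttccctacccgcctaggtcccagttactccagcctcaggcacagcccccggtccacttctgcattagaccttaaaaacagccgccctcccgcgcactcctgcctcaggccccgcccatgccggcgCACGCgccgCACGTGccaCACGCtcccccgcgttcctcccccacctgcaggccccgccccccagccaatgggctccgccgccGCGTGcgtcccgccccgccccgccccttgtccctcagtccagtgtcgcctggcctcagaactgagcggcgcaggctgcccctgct
Oas1a, chr5:120907476-120907775, minus strand: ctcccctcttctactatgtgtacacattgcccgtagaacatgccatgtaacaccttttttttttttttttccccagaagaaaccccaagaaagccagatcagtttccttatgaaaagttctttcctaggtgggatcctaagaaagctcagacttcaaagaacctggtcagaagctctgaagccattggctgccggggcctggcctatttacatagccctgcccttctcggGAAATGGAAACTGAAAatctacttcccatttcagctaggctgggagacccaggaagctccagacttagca
In the first 3 the capitals mark ACGTG or GCGTG on either strand, the core of the element that hypoxia-inducible factors bind, which also lies within other motifs such as the E-box CACGTG. Pgk1 and Hk2 held 2 matches each and Bnip3 5. The first listed promoter held the motif for 14 of the 19 glycolysis members called higher (73.7%) and for 12 of the 14 hypoxia members called higher that had a listed promoter (85.7%), against 61.5% of the 10678 tested genes with one. In Oas1a the capitals mark GAAA, 2 bases of any kind and GAAA on either strand, a part of the interferon-stimulated response element, with 2 overlapping matches. It stood in 6 of the 9 called type I interferon-stimulated members with a listed promoter (66.7%), against 3.29% of tested genes. Over all tested members of that list with a listed promoter, called or not, 11 of 20 held it (55%). For the first motif the shares over all such members were 73.7% for glycolysis and 82.4% for hypoxia. These matches describe letters in the window.

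Antioxidant and cell cycle genes were also higher. Of 18 targets linked to NRF2, the factor of the oxidative stress response, 17 rose with anti-Tim-4 and 16 with isotype (median 1.11 and 1.15). Txn1, thioredoxin, had 425, 469 and 410.4 CPM with anti-Tim-4 and 116, 136 and 102 CPM without a tumor (1.88 ± 0.11, adjusted p = 1.31e-08). Gclm, a subunit of the enzyme that starts glutathione synthesis, rose by 1.13 ± 0.08 (adjusted p = 4.28e-08), and Pgd, of the pentose phosphate pathway, by 1.16 ± 0.09 (adjusted p = 1.27e-07). Of 37 cell cycle genes, 35 rose and 0 fell with anti-Tim-4 (median 1.06), against 26 with isotype (median 0.73). Tyms, thymidylate synthase, had 15.6, 13.5 and 11.6 CPM with anti-Tim-4, 10.2, 10.6 and 10.1 CPM with isotype and 6.28, 6.17 and 6.73 CPM without a tumor (1.08 ± 0.13 over no tumor, adjusted p = 8.3e-06). Its 3 groups did not overlap, in that order from high to low. Plk1, a mitotic kinase, rose by 1.50 ± 0.25 (adjusted p = 0.000195) and Mcm3, of the replicative helicase, by 0.65 ± 0.10 (adjusted p = 7.4e-05). Between anti-Tim-4 and isotype none of the 37 passed in edgeR (median difference 0.28) and 1 had an unadjusted p under 0.05, and DESeq2 called 0 higher and 0 lower, so the larger count with anti-Tim-4 is not shown to be a difference between the antibodies.

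Antigen presentation by MHC class I rose, and so did checkpoint ligands. Of 23 class I genes, 21 rose and 0 fell with anti-Tim-4 and 23 rose with isotype, both with a median of 1.00. B2m, the light chain of class I, had 2965, 3179 and 3130 CPM with anti-Tim-4 and 1486, 1792 and 1366 CPM without a tumor (1.00 ± 0.12, adjusted p = 7.64e-06), and H2-K1, a heavy chain, had 3995, 4115 and 3545 CPM against 1861, 2176 and 1635 CPM (1.04 ± 0.16, adjusted p = 7.8e-05). The peptide trimming enzyme Erap1 and the loading factor Tapbp rose by 0.84 ± 0.10 and 1.00 ± 0.17 (adjusted p = 7.6e-06 and 0.000187). Cd274, which encodes PD-L1, the ligand of the inhibitory receptor PD-1, had 382, 319 and 277 CPM with anti-Tim-4, 376, 380.5 and 344 CPM with isotype and 27, 64.5 and 15.4 CPM without a tumor. No-tumor library 2 stood above the other no-tumor ones and far below every tumor library. Cd274 rose by 3.19 ± 0.66 (adjusted p = 0.00111) and by 3.96 without that library, and its difference from isotype was -0.17 ± 0.61 (95% interval -1.46 to 1.12). Havcr2, which encodes the checkpoint receptor Tim-3, had 8.97, 15.8 and 12.7 CPM with anti-Tim-4 and 0.942, 0.47 and 0.276 CPM without a tumor (4.50 ± 0.40, adjusted p = 5.74e-07, and 5.09 without no-tumor library 1). Lgals9, which encodes galectin-9, a Tim-3 ligand, rose by 0.75 ± 0.07 and Nectin2 by 1.88 ± 0.19 (adjusted p = 1.48e-06 and 1.63e-06). In all 11 of 17 tested members rose and 3 fell, and the 3 were the costimulatory ligand genes Cd80 (-0.91 ± 0.11), Cd86 (-0.71 ± 0.24) and Icosl (-1.42 ± 0.17), with adjusted p of 9.08e-06, 0.024 and 1.15e-05. With isotype 12 rose and 4 fell. The shares of all tested genes with anti-Tim-4 were 23.8% higher and 22.9% lower. Without anti-Tim-4 library 1 or 3, or no-tumor library 2 or 3, 2 of the 3 falls passed.

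Interferon genes were higher against no tumor, to an extent that turned on single no-tumor libraries. Of 26 type I interferon-stimulated genes, 11 rose and 0 fell (median 0.67), and of 20 genes induced by interferon-gamma, 11 rose and 0 fell (median 1.64). With isotype the counts were 11 and 8. The share of all tested genes called higher with anti-Tim-4 was 23.8%. No-tumor library 2 stood highest of its group for several of them. Gbp2, a guanylate-binding protein of cell-autonomous immunity, had 757, 993 and 828 CPM with anti-Tim-4 and 99.8, 332 and 76.8 CPM without a tumor (2.34 ± 0.65, adjusted p = 0.00826, and 3.30 without no-tumor library 2). Without no-tumor library 2, 18 type I and 18 interferon-gamma members passed. Without no-tumor library 1 they were 7 and 6, and without no-tumor library 3 7 and 6. Oasl1, of the 2'-5'-oligoadenylate synthetase family, had 10.6, 15.1 and 9.29 CPM with anti-Tim-4, 17.7, 19.3 and 18.8 CPM with isotype and 3.42, 4.2 and 3.31 CPM without a tumor, with no overlap between the 3 groups (1.68 ± 0.22 over no tumor, adjusted p = 2.29e-05, and -0.67 ± 0.21 over isotype, adjusted p = 0.198). Oas1a, whose promoter is printed above, had 73.8, 95.3 and 81.2 CPM with anti-Tim-4 and 54, 68.9 and 57.2 CPM without a tumor (0.47 ± 0.13, adjusted p = 0.0067). Bst2, tetherin, which holds budding viruses at the membrane, rose by 0.97 ± 0.14 (adjusted p = 3.82e-05). Socs1, a brake on interferon signalling, rose by 2.77 ± 0.67 (adjusted p = 0.00345) and by 3.65 without no-tumor library 2. Cxcl9, a chemokine that draws activated T cells, had 9.61, 16.8 and 14.2 CPM with anti-Tim-4 and 1.19, 22 and 2.92 CPM without a tumor. No-tumor library 2 lay above all tumor libraries, and the difference did not pass (0.64 ± 0.96, adjusted p = 0.612). It was 2.72 without that library (adjusted p = 0.0465).

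Fc receptors, lysosome and matrix genes were mostly higher, where 23.8% of all tested genes rose and 22.9% fell with anti-Tim-4. Fcgr1, the high-affinity Fc receptor for IgG (ENSMUSG00000015947, chromosome 3, 96282909 to 96293969), had 208, 294 and 315 CPM with anti-Tim-4, 337, 405 and 375 CPM with isotype and 29.2, 32.7 and 11.2 CPM without a tumor. Its tumor libraries lay far above the no-tumor ones and the anti-Tim-4 libraries below the isotype ones (3.48 ± 0.32 over no tumor, adjusted p = 7.74e-07, and -0.45 ± 0.29 over isotype, adjusted p = 0.542). Of 13 Fc receptor and signalling genes 9 rose and 3 fell with anti-Tim-4, the same counts as with isotype, and the 3 were Fcrls (-4.52 ± 0.44), Syk (-0.65 ± 0.12) and Fcgrt (-0.62 ± 0.13), with adjusted p of 1.37e-06, 0.000541 and 0.00132. Fcrls encodes an Fc receptor-like scavenger receptor. In the lysosome list 23 rose and 5 fell of 34 tested with anti-Tim-4, and 23 rose and 4 fell with isotype. Ctsl, the protease cathepsin L, had 549, 601 and 543 CPM with anti-Tim-4, 617, 659 and 669 CPM with isotype and 129, 126 and 129 CPM without a tumor (2.14 ± 0.09 over no tumor, adjusted p = 6.23e-10). Gla, alpha-galactosidase, rose by 2.11 ± 0.13 and Lgmn, legumain, by 1.35 ± 0.11 (adjusted p = 1.41e-08 and 3.09e-07). The 5 lysosome falls (Hexa, Ids, Man2b1, Tfeb and Mcoln1) came to 3 without no-tumor library 1. Of 20 matrix and protease genes, 14 rose and 2 fell with anti-Tim-4 (median 1.92), against 16 and 3 with isotype.

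Mmp14, a membrane-bound collagenase, had 36.7, 70.4 and 58.5 CPM with anti-Tim-4, 71.3, 75.9 and 75.8 CPM with isotype and 5.23, 3.01 and 2.62 CPM without a tumor (3.94 ± 0.31 over no tumor, adjusted p = 1.8e-07). Vcan, the matrix proteoglycan versican, had 112, 150.2 and 182 CPM with anti-Tim-4 and 11.5, 4.76 and 3.78 CPM without a tumor (4.48 ± 0.42, adjusted p = 8.2e-07, and 5.14 without no-tumor library 1). Mmp19, a further metalloproteinase, and Adam8, a membrane protease, rose by 1.86 ± 0.13 and 1.69 ± 0.14 (adjusted p = 3.68e-08 and 4.09e-07). The 2 matrix genes that fell were Mmp9, gelatinase B (-4.19 ± 0.65, adjusted p = 0.000103), and Timp2, an inhibitor of metalloproteinases (-0.81 ± 0.09, adjusted p = 6.83e-06), and 3 fell without anti-Tim-4 library 3. Markers of mesothelium and fibroblasts (10 of 11 tested, 9 called higher) summed to 27.2, 31.9 and 18.8 CPM with anti-Tim-4, 29.3, 43 and 107 CPM with isotype and 4.15, 1.72 and 0.91 CPM without a tumor, and their part in the matrix result was not tested. Epithelial markers, listed for the tumor line (7 of 11 tested), summed to 22, 21.7 and 16.7 CPM with anti-Tim-4 and 17.9, 8.61 and 6.4 CPM without a tumor. Of the 7, 2 were called higher and 2 lower over no tumor, with a median log2 fold change of -1.20. Whether the tumor line expresses these genes was not tested. Among scavenger receptors 8 rose and 3 fell of 13 tested, where 23.8% of all genes rose and 22.9% fell. Olr1, the receptor for oxidised LDL, had 105, 73.2 and 78.3 CPM with anti-Tim-4 and 6.45, 5.79 and 4.52 CPM without a tumor (3.94 ± 0.19, adjusted p = 1.73e-09), and Msr1, scavenger receptor A, rose by 0.90 ± 0.11 (adjusted p = 7.85e-06). Colec12, a scavenger receptor with a lectin domain, fell by 3.01 on the log2 scale (adjusted p = 1.59e-05), as did Cd163 (-3.86, adjusted p = 7.61e-05) and Cd36, a receptor for lipids and dying cells (-2.23, adjusted p = 5.41e-05).

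Receptors and bridging proteins for phosphatidylserine, the ligand of Tim-4, moved in both directions, with 8 higher and 6 lower of 20 tested (median 0.22), and the falls came to 3 without anti-Tim-4 library 2. Tgm2, transglutaminase 2, which also acts in clearing dying cells, had 1514, 1819 and 1678 CPM with anti-Tim-4, 1738, 2230 and 1970 CPM with isotype and 58.7, 63.8 and 16.7 CPM without a tumor (5.17 ± 0.59 over no tumor, adjusted p = 6.13e-06). Cd300lf, a receptor that binds phosphatidylserine, had 164, 189 and 159 CPM with anti-Tim-4, 222, 216 and 218 CPM with isotype and 21.5, 27.9 and 15.4 CPM without a tumor (2.98 ± 0.30 over no tumor, adjusted p = 1.63e-06, and -0.36 ± 0.27 over isotype, adjusted p = 0.607). All tumor libraries exceeded all no-tumor ones, and the anti-Tim-4 libraries lay below the isotype ones. Itgav, the integrin alpha-v chain, rose by 0.99 ± 0.09 (adjusted p = 3.97e-07). The receptor kinase genes Mertk and Axl did not pass over no tumor. Mertk had 174, 149.7 and 184 CPM with anti-Tim-4 and 117, 164 and 141 CPM without a tumor (0.27 ± 0.15, 95% interval -0.05 to 0.58, adjusted p = 0.152). Axl had 302, 290.1 and 324 CPM with anti-Tim-4 and 314, 309.8 and 374 CPM without a tumor (-0.12 ± 0.14, 95% interval -0.42 to 0.17, adjusted p = 0.486). In the complement list 8 rose and 3 (Cfp, Cd55 and Fcna) fell of 20 tested, where 23.8% of all genes rose and 22.9% fell. The complement falls came to 2 without anti-Tim-4 library 3 or no-tumor library 1. C1ra, a protease of the classical pathway, rose by 2.33 ± 0.45 (adjusted p = 0.000663) and by 2.95 without no-tumor library 2.

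Lipid genes divided. Apoe, apolipoprotein E (ENSMUSG00000002985, chromosome 7, 19696109 to 19699188), fell to 1056, 1522 and 2048 CPM with anti-Tim-4 and had 2293, 2173 and 2005 CPM with isotype, against 10630, 16340 and 20440 CPM without a tumor (-3.36 ± 0.31, adjusted p = 7.94e-07, and -0.48 ± 0.28 over isotype, adjusted p = 0.502). Every tumor library lay below every no-tumor one. Lpl, lipoprotein lipase, had 154, 184 and 216 CPM with anti-Tim-4 against 587, 667 and 859.7 CPM without a tumor (-1.93 ± 0.18, adjusted p = 8.99e-07). Pltp, the phospholipid transfer protein, fell by 2.61 on the log2 scale (adjusted p = 1.94e-06), and so did Pparg, a lipid-sensing nuclear receptor (-2.41, adjusted p = 0.000553). These 4 fell and 12 rose of 22 tested, and Cd9, a tetraspanin, rose by 2.07 ± 0.24 (adjusted p = 8e-06). Of 23 cholesterol synthesis genes 3 rose and 7 fell, and the rises came to 1 without anti-Tim-4 library 2 and to 2 without library 3 or no-tumor library 1 or 2. Srebf2, the factor that drives the pathway, fell by 0.89 on the log2 scale (adjusted p = 0.000262). Of 13 genes of the mitochondrial genome, 2 (mt-Co1 and mt-Co3) rose and 0 fell, a count that ran from 1 to 7 when 1 library was left out, with 7 without no-tumor library 1 and 4 without anti-Tim-4 library 2. Of all tested genes 23.8% rose and 22.9% fell. In the main fit the rises in the cholesterol and mitochondrial lists were thus below the share of all genes, and the cholesterol falls were above theirs. Without no-tumor library 1 or anti-Tim-4 library 2 the mitochondrial rises exceeded 23.8%.

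The genes listed for the small or recruited cavity macrophage were mostly lower, under the antibody as with isotype, while 4 members known from monocytes rose with anti-Tim-4. Of 20 tested members 4 rose and 11 fell with anti-Tim-4 (median -1.25), and 4 and 11 with isotype (median -1.44). The shares of all genes with anti-Tim-4 were 23.8% higher and 22.9% lower. Retnla, a secreted product of alternative activation, had 132, 231 and 151 CPM with anti-Tim-4, 192, 147 and 129 CPM with isotype and 2686, 3765 and 4362 CPM without a tumor. The tumor groups overlapped and lay far below the no-tumor libraries (-4.39 ± 0.34 over no tumor, adjusted p = 1.55e-07, and 0.13 ± 0.30 over isotype). Lyz1, a lysozyme, had 134, 201 and 192 CPM with anti-Tim-4 and 2307, 3596 and 3669 CPM without a tumor (-4.18 ± 0.30, adjusted p = 7.29e-08). Fcrls had 22.7, 43.2 and 25.9 CPM with anti-Tim-4 and 572, 639 and 896 CPM without a tumor. Irf4, a transcription factor of the small population, had 31.7, 28.8 and 33 CPM with anti-Tim-4, 27.7, 18 and 17.4 CPM with isotype and 161, 142 and 158 CPM without a tumor (-2.30 ± 0.19 over no tumor, adjusted p = 2.51e-07). Its anti-Tim-4 libraries lay above the isotype ones, a difference that did not pass (0.57 ± 0.18, adjusted p = 0.221). Cd226, an adhesion receptor that marks the small population, fell by 2.12 on the log2 scale (adjusted p = 1.4e-05). Ccr2, the receptor for the monocyte chemoattractant Ccl2, had 559.6, 608 and 838 CPM with anti-Tim-4, 959.7, 918 and 811 CPM with isotype and 1196, 1444 and 1766 CPM without a tumor. It fell by 1.14 on the log2 scale over no tumor (adjusted p = 0.0144), and the call was lost without anti-Tim-4 library 1 or 2 or no-tumor library 3 (adjusted p = 0.0571, 0.0516 and 0.0552). The 4 that rose were Ly6c2 (3.35 ± 0.72), Fcgr4 (2.42 ± 0.55), Plac8 (2.12 ± 0.66) and Ms4a4c (2.02 ± 0.53), known from classical or patrolling monocytes, with adjusted p of 0.00149, 0.0022, 0.0161 and 0.00581.

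MHC class II genes were mixed. Of 14 tested members 2 rose and 4 fell (median -0.18), where 23.8% of all genes rose and 22.9% fell. H2-Eb1, a class II beta chain, had 2111, 2522 and 2712 CPM with anti-Tim-4, 2639, 2570 and 2710 CPM with isotype and 2992, 3329 and 4205 CPM without a tumor. The anti-Tim-4 libraries all lay below the no-tumor ones, and the difference did not pass (-0.52 ± 0.41, 95% interval -1.39 to 0.35, adjusted p = 0.318). The members that rose were the endosomal processing genes Ifi30, a thiol reductase (1.91 ± 0.14, adjusted p = 6.71e-08), and Ctss, cathepsin S (1.17 ± 0.10, adjusted p = 2.46e-07). Those that fell were H2-DMb2 (-1.97 ± 0.37), H2-Ob (-1.64 ± 0.35), H2-Oa (-1.51 ± 0.57) and H2-Eb2 (-3.38 ± 1.00), with adjusted p of 0.000513, 0.00128, 0.04 and 0.0116. H2-Oa and H2-Ob form the peptide-exchange modulator DO, which B cells carry. The B cell marker sums given above were also lower with anti-Tim-4, and the part of B cells in these falls was not tested. Without no-tumor library 1, which had the highest B cell sum, 2 of the 4 class II falls passed, and H2-Eb2 was at -1.51 (adjusted p = 0.179). Among the alternative settings, H2-DMb2 and H2-Ob passed in 15 of 15 and H2-Eb2 in 12 of 15.

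Genes of alternative activation, the state induced by interleukin-4 and interleukin-13, divided into 7 higher and 8 lower of 20 tested, against 8 and 10 with isotype. The shares of all genes with anti-Tim-4 were 23.8% higher and 22.9% lower. Il4ra, the interleukin-4 receptor chain, had 384, 425 and 505 CPM with anti-Tim-4 and 142, 144 and 146 CPM without a tumor (1.60 ± 0.12, adjusted p = 1.24e-07), and rose together with Arg1, Tgm2 and Chil3. Retnla, Irf4 and Cd163 fell. Mrc1, the mannose receptor CD206, had 301, 323 and 502 CPM with anti-Tim-4, 498, 520.3 and 297 CPM with isotype and 439.6, 675 and 780.4 CPM without a tumor, and the groups overlapped (-0.75 ± 0.42, adjusted p = 0.161).

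Genes of the large peritoneal macrophage also divided, in shares near those of all genes (23.8% higher and 22.9% lower), with 5 higher and 6 lower of 22 tested (median 0.04), against 3 and 8 with isotype (median -0.37). Adgre1, which encodes F4/80, had 2257, 1795 and 817 CPM with anti-Tim-4, 959, 734 and 1421 CPM with isotype and 776, 662 and 494 CPM without a tumor (1.33 ± 0.33 over no tumor, adjusted p = 0.00383, and 0.64 ± 0.32 over isotype, adjusted p = 0.431). Anti-Tim-4 libraries 1 and 2 stood above library 3, which was among the isotype values. F10, coagulation factor X, had 720, 642 and 563 CPM with anti-Tim-4 and 241, 304 and 254 CPM without a tumor (1.27 ± 0.13, adjusted p = 2.36e-06). Itgam, which encodes CD11b, rose by 0.83 ± 0.11 (adjusted p = 2.13e-05), and Garnl3 (1.84 ± 0.62) and Marco, a scavenger receptor (1.68 ± 0.50), rose with adjusted p of 0.0234 and 0.0126. Cxcl13, a B cell chemokine of cavity macrophages, fell to 12.8, 13.5 and 5.19 CPM with anti-Tim-4, against 244, 236 and 233 CPM without a tumor (-4.51 ± 0.49, adjusted p = 3.98e-06). Cd163, the haemoglobin scavenger receptor, had 14.2, 14.8 and 19.1 CPM with anti-Tim-4 and 105, 311 and 284 CPM without a tumor (-3.86 ± 0.58), and Fcna, a ficolin, fell by 1.55 on the log2 scale (adjusted p = 0.000832). Gata6 had 111, 82.4 and 27.2 CPM with anti-Tim-4, 42.6, 26.1 and 69.8 CPM with isotype and 55.1, 33.9 and 25.9 CPM without a tumor, and overlapped (0.94 ± 0.45, adjusted p = 0.101). Over 15 alternative settings the Gata6 change over no tumor ran from 0.52 to 1.71 and passed in 4. Without anti-Tim-4 library 3 the list had 8 members higher, and without no-tumor library 3 it had 3.

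Among the largest rises were Chil3, Lepr, Spp1, Ucp1, AA467197, Nos2, Arg1, Me1, Prss35, Angptl2 and Epb41l3, and several differed widely among the anti-Tim-4 libraries. Chil3, the chitinase-like protein Ym1, had 10470, 7605 and 1513 CPM with anti-Tim-4, 2509, 1944 and 3378 CPM with isotype and 55, 10.9 and 10.8 CPM without a tumor. Anti-Tim-4 library 3 held the least Chil3 of the tumor libraries and libraries 1 and 2 the most (8.0 ± 1.1 over no tumor, adjusted p = 3.48e-05, and 1.32 ± 0.82 over isotype, adjusted p = 0.528). Spp1, osteopontin, had 649, 499 and 163 CPM with anti-Tim-4, 196, 224 and 271 CPM with isotype and 5.27, 1.72 and 0.91 CPM without a tumor (7.41 ± 0.66 over no tumor, adjusted p = 5.93e-07). Lepr, the leptin receptor, had 79.8, 64 and 16.9 CPM with anti-Tim-4 and 0.593, 0.0313 and 0.0827 CPM without a tumor (7.91 ± 0.88, adjusted p = 4.96e-06). Ucp1, the uncoupling protein best known from brown fat, had 126, 114 and 30.4 CPM with anti-Tim-4 and 1.12, 1.72 and 0.413 CPM without a tumor (6.40 ± 0.73, adjusted p = 6.28e-06). Me1, the cytosolic malic enzyme, had 95.5, 109 and 22.5 CPM with anti-Tim-4 and 1.95, 0.783 and 0.717 CPM without a tumor. Anti-Tim-4 library 1 held 6.92, 4.73, 3.98, 4.16, 4.24 and 4.07 times the level of library 3 for Chil3, Lepr, Spp1, Ucp1, Me1 and Prss35, against 1.05 times for Arg1. The remaining 4 rose by 6.37 (AA467197), 5.94 (Prss35), 5.70 (Angptl2) and 5.63 (Epb41l3). Without no-tumor library 1 the fold changes of several of these genes were over 1.5 times larger. Their log2 fold changes were then 9.25 for Chil3, 9.75 for Lepr, 8.41 for Spp1, 8.28 for AA467197, 6.67 for Me1, 6.55 for Epb41l3 and 6.95 for Arg1.

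**Figure D3:**
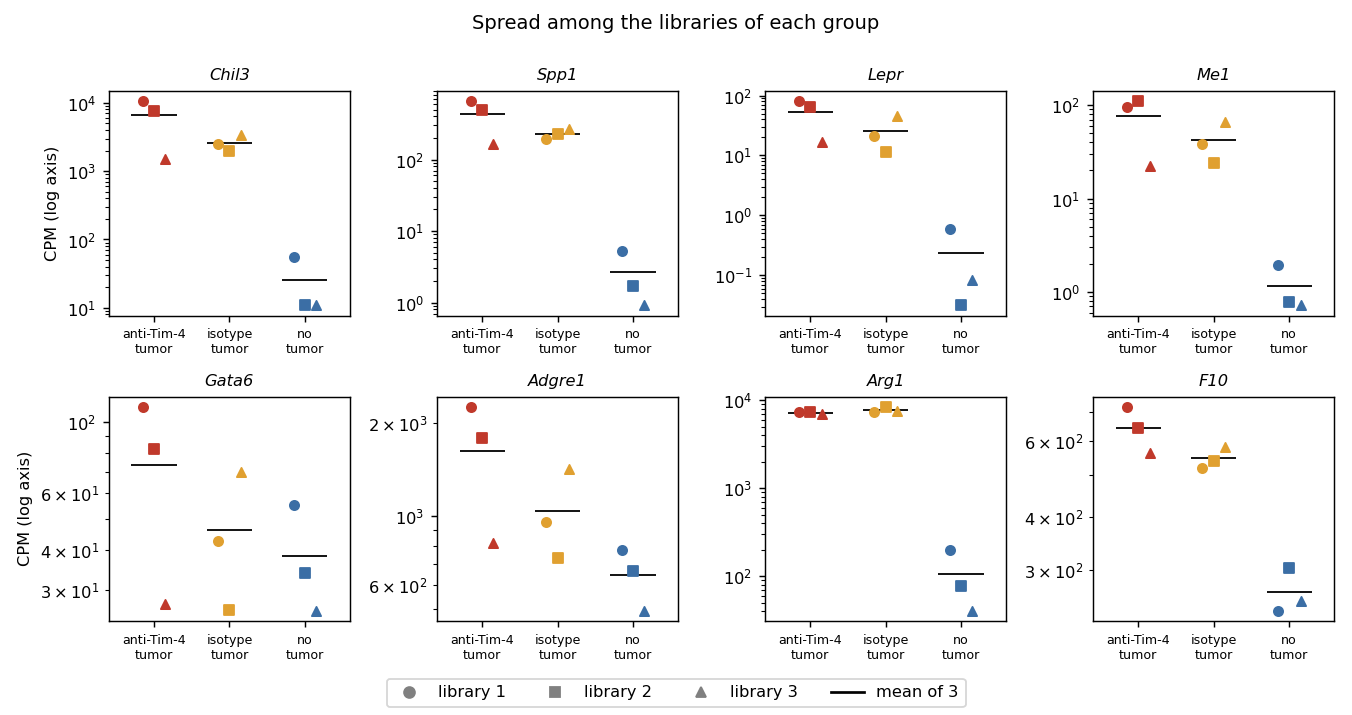
CPM on log axes of 8 genes in each Tim-4low library, with anti-Tim-4 tumor, isotype tumor and no tumor from left to right and a bar at the mean of 3. For Chil3, Spp1, Lepr, Me1, Gata6 and Adgre1 anti-Tim-4 library 3 (triangle) lies well below libraries 1 and 2, while for Arg1 the 3 lie close together and for F10 they run from 563 to 720 CPM.

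Among the 12 largest falls, 2 groups of genes could be told apart by their values. St8sia6, a sialyltransferase, had 2.02, 1.98 and 2.99 CPM with anti-Tim-4, 1.55, 1.35 and 1.66 CPM with isotype and 164, 149 and 171 CPM without a tumor, close together within each group (-6.11 ± 0.24, adjusted p = 6.23e-10). Abca6, a lipid transporter of the ABC family, had 0.271, 0.101 and 0.264 CPM with anti-Tim-4 and 11.8, 9.52 and 10.8 CPM without a tumor (-5.61 ± 0.37, adjusted p = 2.9e-08). Cd209f, of the DC-SIGN lectin family, had 0, 0.101 and 0.0879 CPM with anti-Tim-4 against 8.34, 24.2 and 23.9 CPM without a tumor. The others were highest in no-tumor library 1. Ms4a1, which encodes the B cell antigen CD20, had 1.39, 0.907 and 2.11 CPM with anti-Tim-4 and 193, 15.5 and 23.1 CPM without a tumor (-5.69 ± 1.14, adjusted p = 0.000837, and -3.68 without no-tumor library 1). Pax5, the B cell transcription factor, had 0.843, 0.235 and 0.997 CPM with anti-Tim-4 and 85.4, 9.18 and 9.98 CPM without a tumor. Blk, Fcmr and Mzb1 (genes of B lineage cells), Cacna1e, Cacna1i and Diras2 shared that pattern, and Mcpt4, a mast cell protease, stood at 28.3, 0.908 and 1.41 CPM without a tumor. Without no-tumor library 1 the falls were -3.74 for Pax5, -4.42 for Blk, -4.15 for Fcmr, -4.58 for Mzb1, -3.85 for Cacna1e, -3.92 for Cacna1i, -4.84 for Diras2 and -3.56 for Mcpt4. All 11 B cell markers and 4 of 5 mast cell markers were called lower, and the part of those cells in the other falls was not tested. The fold change of Mcpt4 moved by over 1.5 times without anti-Tim-4 library 1 or 2 as well (log2 -6.12 and -7.70). So did those of Mzb1 without library 1 (-7.12), and Blk and Fcmr without library 3 (-7.21 and -6.61).

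What the antibody undid was tested by the difference from isotype. Of the 54 genes called there, 45 had an isotype change over no tumor in the opposite direction: 13 rose in isotype mice and were lower with anti-Tim-4, and 32 fell in isotype mice and were higher with anti-Tim-4. Of these 45, 23 no longer passed over no tumor with anti-Tim-4, 21 still passed in the isotype direction and 1 passed in the other. Both tests use the isotype libraries, which by itself favours opposite signs, so the count of 45 is a description. Of the 54, 2 were more than 2-fold higher and 5 more than 2-fold lower, and over all genes the 2 tumor groups did not overlap for 18%. None of the calls held when the 9 Tim-4low libraries were fitted alone.

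Of the members of all lists, Ptgs2 and Nlrp3 were called lower and Cd300lb, of the phosphatidylserine list, higher with anti-Tim-4 than with isotype. Ptgs2, which encodes cyclooxygenase 2, the inducible enzyme of prostaglandin synthesis (ENSMUSG00000032487, chromosome 1, 150100031 to 150108227), had 4.22, 5.88 and 3.84 CPM with anti-Tim-4, 18.9, 14.8 and 17.3 CPM with isotype and 0.767, 1.25 and 2.32 CPM without a tumor. The groups did not overlap (-1.87 ± 0.37 over isotype, adjusted p = 0.0435), and it still passed over no tumor (1.66 ± 0.40, adjusted p = 0.00307). Nlrp3, the inflammasome sensor, had 44.8, 45.5 and 46.1 CPM with anti-Tim-4, 67.3, 66.2 and 60.2 CPM with isotype and 39.1, 45.5 and 52.2 CPM without a tumor. Its anti-Tim-4 libraries lay within the range of the no-tumor ones and below the isotype ones (-0.51 ± 0.09, adjusted p = 0.0339). Il17ra, the interleukin-17 receptor chain, had 118, 118 and 139.5 CPM with anti-Tim-4, 162, 183 and 174 CPM with isotype and 115, 110.1 and 109 CPM without a tumor (-0.47 ± 0.09, adjusted p = 0.0407). Csrnp1, an immediate-early nuclear protein, had 34.7, 34.5 and 22.6 CPM with anti-Tim-4, 84, 73.7 and 82 CPM with isotype and 17.9, 15.4 and 31.2 CPM without a tumor (-1.39 ± 0.25, adjusted p = 0.0339). Sgk1, a kinase induced by serum and glucocorticoids, had 89.4, 71.1 and 85.3 CPM with anti-Tim-4, 176, 163 and 128 CPM with isotype and 64.5, 58.9 and 73.4 CPM without a tumor (-0.93 ± 0.16, adjusted p = 0.0339). Lpar6, a receptor for lysophosphatidic acid, was lower (-0.72 ± 0.13, adjusted p = 0.0339), as were Slc25a28, a mitochondrial iron carrier (-0.65 ± 0.10), Prmt6, an arginine methyltransferase (-0.45 ± 0.08), Taf13, of the general transcription factor TFIID (-0.44 ± 0.08), and Rbm28 (-0.32 ± 0.06), each at an adjusted p of 0.029 to 0.0339. Among the alternative settings, Ptgs2 passed in 3 of 15, Csrnp1 in 5 of 15, Nlrp3 in 7 of 15 and Sgk1 in 7 of 15. Rbm28 and Prmt6 passed in 4, Il17ra and Taf13 in 6, Lpar6 in 7 and Slc25a28 in 9.

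Cd300lb, a receptor of myeloid cells that binds phosphatidylserine, had 113, 102 and 117 CPM with anti-Tim-4, 81, 80.7 and 78.5 CPM with isotype and 139, 183 and 172 CPM without a tumor (0.47 ± 0.09 over isotype, adjusted p = 0.0395, and -0.57 ± 0.09 over no tumor, adjusted p = 8.04e-05). Klhl9, a substrate adaptor of a ubiquitin ligase, had 101, 95.6 and 109 CPM with anti-Tim-4, 66.9, 69.7 and 73.7 CPM with isotype and 115, 126 and 117 CPM without a tumor (0.54 ± 0.07, adjusted p = 0.00603). Its anti-Tim-4 libraries lay between the other groups. Kctd21, a further ubiquitin ligase adaptor, had 9.73, 9.88 and 11.5 CPM with anti-Tim-4, 6.56, 6.52 and 5.82 CPM with isotype and 11.1, 10.5 and 10.2 CPM without a tumor (0.72 ± 0.09, adjusted p = 0.0036), and its anti-Tim-4 libraries overlapped the no-tumor ones. Fam53b, for which the isotype libraries were near no tumor, had 83.2, 75.5 and 79.5 CPM with anti-Tim-4, 59.2, 58.9 and 55.7 CPM with isotype and 62.8, 62.1 and 58 CPM without a tumor (0.46 ± 0.05, adjusted p = 0.0036). Flcn, folliculin, a regulator of lysosomal mTORC1 signalling, had 57.3, 60.2 and 51.6 CPM with anti-Tim-4, 41.6, 37.6 and 39 CPM with isotype and 51.9, 62.7 and 52.9 CPM without a tumor (0.52 ± 0.09, adjusted p = 0.0339). Tmppe had 26, 17.9 and 19.9 CPM with anti-Tim-4, 12.8, 11.7 and 11.1 CPM with isotype and 21.8, 25.7 and 20.9 CPM without a tumor (0.84 ± 0.12, adjusted p = 0.0132). Cdc42ep4, an effector of the GTPase Cdc42, was higher by 0.46 ± 0.07, Natd1 by 0.62 ± 0.10, Tnpo2, a nuclear import receptor, by 0.46 ± 0.08, Yeats2, a histone reader, by 0.46 ± 0.08 and Pdrg1 by 0.70 ± 0.12, at adjusted p of 0.029 to 0.0339. Cdc42ep4 had already risen with isotype over no tumor (0.40 ± 0.07, adjusted p = 0.000338), whereas the other 4 had fallen there. Of 15 alternative settings, Fam53b and Kctd21 passed in 13, Klhl9 in 12, Cdc42ep4 in 10, Tmppe in 9, Natd1 and Pdrg1 in 8, Flcn in 7, and Tnpo2 and Yeats2 in 6.

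**Figure D4:**
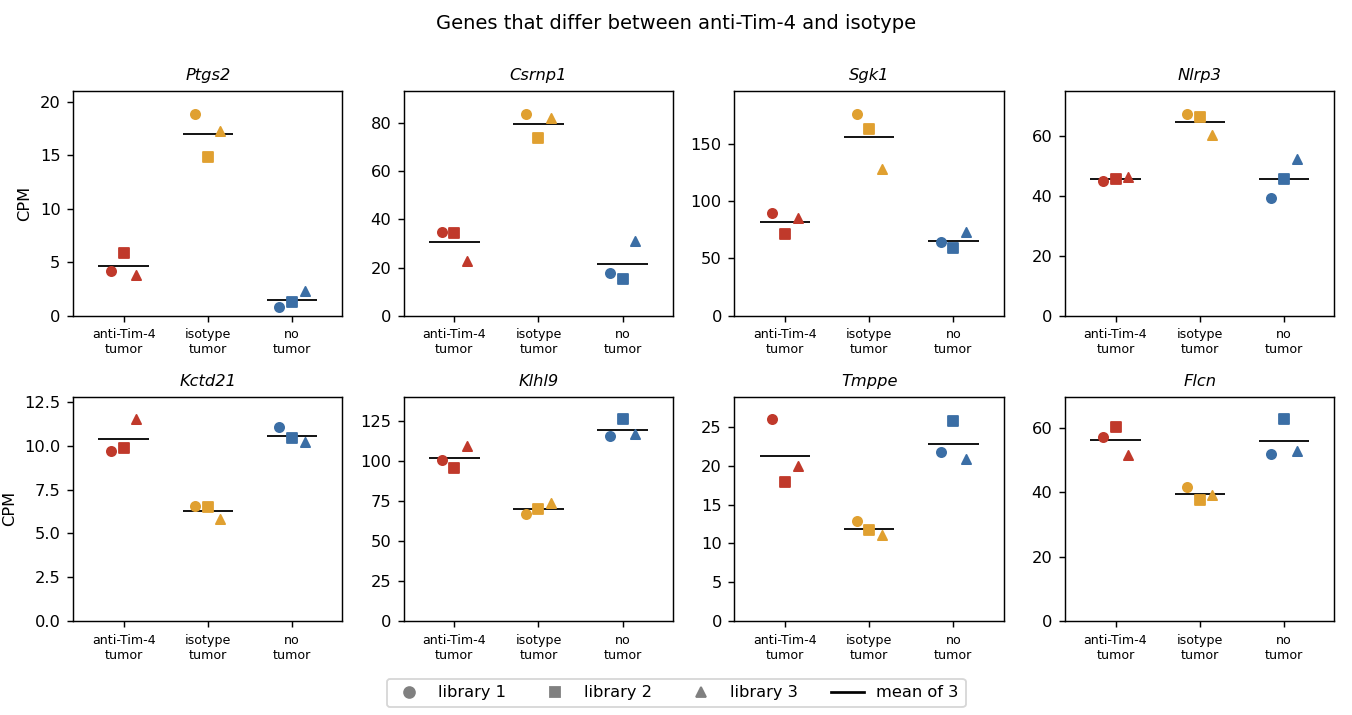
CPM of 8 genes called between anti-Tim-4 and isotype, per Tim-4low library, with anti-Tim-4 tumor, isotype tumor and no tumor from left to right and a bar at the mean of 3. In the top row the isotype libraries are highest. The anti-Tim-4 ones are near or somewhat above no tumor for Csrnp1, Sgk1 and Nlrp3, and clearly above it without overlap for Ptgs2. In the bottom row the isotype libraries are lowest.

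In edgeR no member of the stress or chemokine lists passed between the antibodies, and their medians were below that of all genes. Of 30 immediate-early and heat shock genes, 4 rose and 11 fell with anti-Tim-4 over no tumor (median -0.54), against 4 and 7 with isotype (median 0.08). The shares of all genes with anti-Tim-4 were 23.8% higher and 22.9% lower. The median difference from isotype was -0.53 (all genes -0.02), with 0 of 30 called by edgeR, while 16 had an unadjusted p under 0.05, and DESeq2 called 2 higher and 4 lower. The 4 that rose were Nfkbia (1.24 ± 0.15), an inhibitor of NF-kappaB, Maff (2.35 ± 0.33), Ier3 (1.00 ± 0.21) and Hsph1 (0.54 ± 0.17), with adjusted p of 9.03e-06, 4.23e-05, 0.0013 and 0.0197. Egr3, an immediate-early factor, had 1.45, 1.14 and 1.35 CPM with anti-Tim-4, 3.27, 2.24 and 3.33 CPM with isotype and 4.05, 6.76 and 37.3 CPM without a tumor. No-tumor library 3 stood far above the rest (-3.61 ± 0.67, adjusted p = 0.000489, and -2.02 without it). The chaperone gene Hspa1b had 173, 143 and 248 CPM with anti-Tim-4, 55.8, 75.2 and 61.9 CPM with isotype and 488, 1293 and 1370 CPM without a tumor, with no overlap between the 3 groups (-2.48 ± 0.39 over no tumor, adjusted p = 0.000124, and 1.55 ± 0.38 over isotype, adjusted p = 0.106). Hspa1a, a near-identical copy that may share reads with it, fell by 2.34 on the log2 scale over no tumor (adjusted p = 0.000348).

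Of 22 chemokine genes, 8 rose and 3 fell with anti-Tim-4 (median 0.97), against 13 and 4 with isotype (median 1.64). The shares of all genes with anti-Tim-4 were 23.8% higher and 22.9% lower. The median difference from isotype was -0.88, with 0 of 22 called by edgeR, while 11 had an unadjusted p under 0.05, and DESeq2 called 0 higher and 2 lower. Ccl12, a ligand of Ccr2 in the mouse, had 3.55, 4.8 and 3.78 CPM with anti-Tim-4, 8.12, 11.7 and 8.7 CPM with isotype and 0.0698, 0.0626 and 0.165 CPM without a tumor (5.24 ± 0.51 over no tumor, adjusted p = 1.21e-06, 5.86 without no-tumor library 3, and -1.23 ± 0.34 over isotype, adjusted p = 0.136). Every anti-Tim-4 library lay below every isotype one and above no tumor. Ccl8, which draws monocytes and T cells, had 2.08, 5.14 and 4.07 CPM with anti-Tim-4, 8.91, 10.5 and 6.62 CPM with isotype and 0.209, 0.313 and 0 CPM without a tumor (4.46 ± 0.75 over no tumor, adjusted p = 0.000202, and -1.21 ± 0.45 over isotype, adjusted p = 0.281). Without no-tumor library 2 or 3 its change over no tumor was 5.29 or 3.83. Cxcl14 had 24.2, 26.8 and 26 CPM with anti-Tim-4, 34.6, 40.9 and 30.2 CPM with isotype and 9.84, 11.3 and 9.9 CPM without a tumor (1.31 ± 0.15 over no tumor, adjusted p = 7.85e-06), and Ccl6 rose by 0.91 ± 0.11 (adjusted p = 1e-05). The 3 that fell were Cxcl12 (-4.31 ± 0.33), the ligand of Cxcr4, Cxcl13 (-4.51 ± 0.49) and Pf4 (-2.36 ± 0.34), with adjusted p of 1.27e-07, 3.98e-06 and 4.59e-05, and 5 fell without anti-Tim-4 library 1 or no-tumor library 1. Of 21 cytokine and inflammasome genes 10 rose and 2 (Il15 and Tgfb2) fell over no tumor, the falls coming to 1 without anti-Tim-4 library 3 or no-tumor library 2, and Ptgs2 and Nlrp3 were called lower than isotype. Il1a, interleukin-1 alpha, had 19.9, 14.9 and 10.8 CPM with anti-Tim-4, 24.8, 19.7 and 21.1 CPM with isotype and 2.09, 1.75 and 3.09 CPM without a tumor (2.71 ± 0.32 over no tumor, adjusted p = 7.37e-06). Casp1, the inflammasome protease, rose by 1.04 ± 0.17 (adjusted p = 0.000198), and Il18bp, the decoy for interleukin-18, by 2.69 ± 0.62 (adjusted p = 0.00245) or by 3.92 without no-tumor library 2.

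The change was compared with that of Tim-4high macrophages of the same conditions by an interaction term. It called 1094 genes (6.59%), 406 with the higher log2 change in Tim-4low (2.44%) and 688 with the higher log2 change in Tim-4high cells (4.14%). Library numbers paired Tim-4low with Tim-4high libraries within a condition (same-number correlations 0.155 to 0.489 in 9 pairs), and a fit with that pairing called 2793. The 1094 calls and the interaction values given here come from the fit without that pairing, unless stated. Ccr2 had 559.6, 608 and 838 CPM in anti-Tim-4 and 1196, 1444 and 1766 CPM in no-tumor Tim-4low libraries, and 150.2, 117 and 159 CPM in anti-Tim-4 and 73.2, 28.5 and 38.1 CPM in no-tumor Tim-4high libraries. It was lower with the tumor in every Tim-4low library and higher in every Tim-4high one (-2.74 ± 0.50, adjusted p = 0.00481). H2-Eb1 had 2111, 2522 and 2712 CPM in anti-Tim-4 and 2992, 3329 and 4205 CPM in no-tumor Tim-4low libraries, and 2076, 1823 and 2202 CPM in anti-Tim-4 and 233, 718 and 115 CPM in no-tumor Tim-4high libraries, and the anti-Tim-4 libraries of the 2 populations came close together (-3.04 ± 0.59, adjusted p = 0.00739). It was -4.07 without Tim-4high no-tumor library 2. Mrc1 and Axl had differences of -2.37 ± 0.61 and -1.31 ± 0.20 (adjusted p = 0.0308 and 0.00159). Of the lists, 7 of 14 class II members and 8 of 20 small or recruited members were called, all with the lower log2 change in Tim-4low cells, and so were 10 of 37 cell cycle genes.

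The largest interactions included Ltb4r1, a leukotriene B4 receptor, which had 65.9, 104 and 124 CPM in anti-Tim-4 and 71.7, 69.8 and 102 CPM in no-tumor Tim-4low libraries, and 49, 57.7 and 82.1 CPM in anti-Tim-4 and 4.3, 1.18 and 0.679 CPM in no-tumor Tim-4high libraries (-4.66 ± 0.60, adjusted p = 0.000456). The Tim-4low groups overlapped and the Tim-4high groups were far apart, and without Tim-4high no-tumor library 1 the difference was -5.78. Gsn, the actin-severing protein gelsolin, had 107, 168 and 161 CPM in anti-Tim-4 and 63.8, 64.6 and 92.6 CPM in no-tumor Tim-4low libraries, and 103, 122 and 135 CPM in anti-Tim-4 and 6.42, 3.95 and 3.32 CPM in no-tumor Tim-4high libraries (-3.74 ± 0.35, adjusted p = 0.000107). Synpo, Acvrl1 and Htr7 had differences of -3.93 ± 0.40, -3.63 ± 0.43 and -4.10 ± 1.04 (adjusted p = 0.000113, 0.000253 and 0.0292). In the other direction Cdkn2a, the cell cycle inhibitor locus, had 21.1, 21.1 and 5.95 CPM in anti-Tim-4 and 1.26, 0.845 and 0.413 CPM in no-tumor Tim-4low libraries, and 22, 21.1 and 14.8 CPM in anti-Tim-4 and 8.03, 12.6 and 8.56 CPM in no-tumor Tim-4high libraries (3.30 ± 0.76, adjusted p = 0.0181). Col18a1, collagen XVIII, had 176, 99.4 and 21.3 CPM in anti-Tim-4 and 2.93, 2.88 and 2.18 CPM in no-tumor Tim-4low libraries, and 113, 56 and 28.1 CPM in anti-Tim-4 and 17.2, 12.9 and 22.2 CPM in no-tumor Tim-4high libraries (3.31 ± 0.84, adjusted p = 0.0303), with anti-Tim-4 library 3 lowest in both populations. Fscn1, Cd209b and Shank3 had differences of 4.05 ± 1.07, 3.33 ± 0.81 and 3.00 ± 0.79 (adjusted p = 0.0348, 0.0238 and 0.0347). Without anti-Tim-4 Tim-4low library 1 the calls of Mrc1, Fscn1, Cd209b, Col18a1, Cdkn2a, Shank3 and Htr7 were lost (adjusted p = 0.09, 0.0783, 0.0765, 0.0929, 0.0536, 0.1 and 0.0674), as they were without Tim-4low no-tumor library 3 or anti-Tim-4 Tim-4high library 3. Without Tim-4low no-tumor library 1 Fscn1 and Shank3 were at 4.81 and 4.15, and without anti-Tim-4 Tim-4high library 1 Col18a1 was at 3.95, against 2.59 without anti-Tim-4 Tim-4low library 1. Htr7 was at -4.74 without Tim-4high no-tumor library 1. Arg1, Cd274, Vegfa, Apoe, Mertk, Havcr2 and Cxcl9 did not pass, with differences of 0.59, 0.48, -0.51, -0.20, 0.20, -0.92 and -0.18. Single no-tumor libraries moved several of these. Without Tim-4low library 1 Arg1 was at 1.43 and passed (adjusted p = 0.00375). Without Tim-4high library 2 Vegfa was at -0.94 and passed (adjusted p = 0.0423), Cd274 was at -1.25 and Cxcl9 at -3.17, while without Tim-4low library 2 Cd274 was at 1.25 and Cxcl9 at 1.90, and neither gene passed in any of these. Gata6 (2.01 ± 0.64), Adgre1 (1.32 ± 0.46) and Ccl8 (-6.25 ± 1.83) did not pass either (adjusted p = 0.0726, 0.101 and 0.0531), and all 3 passed with the pairing (adjusted p = 0.000723, 0.00137 and 0.00535).

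**Figure D5:**
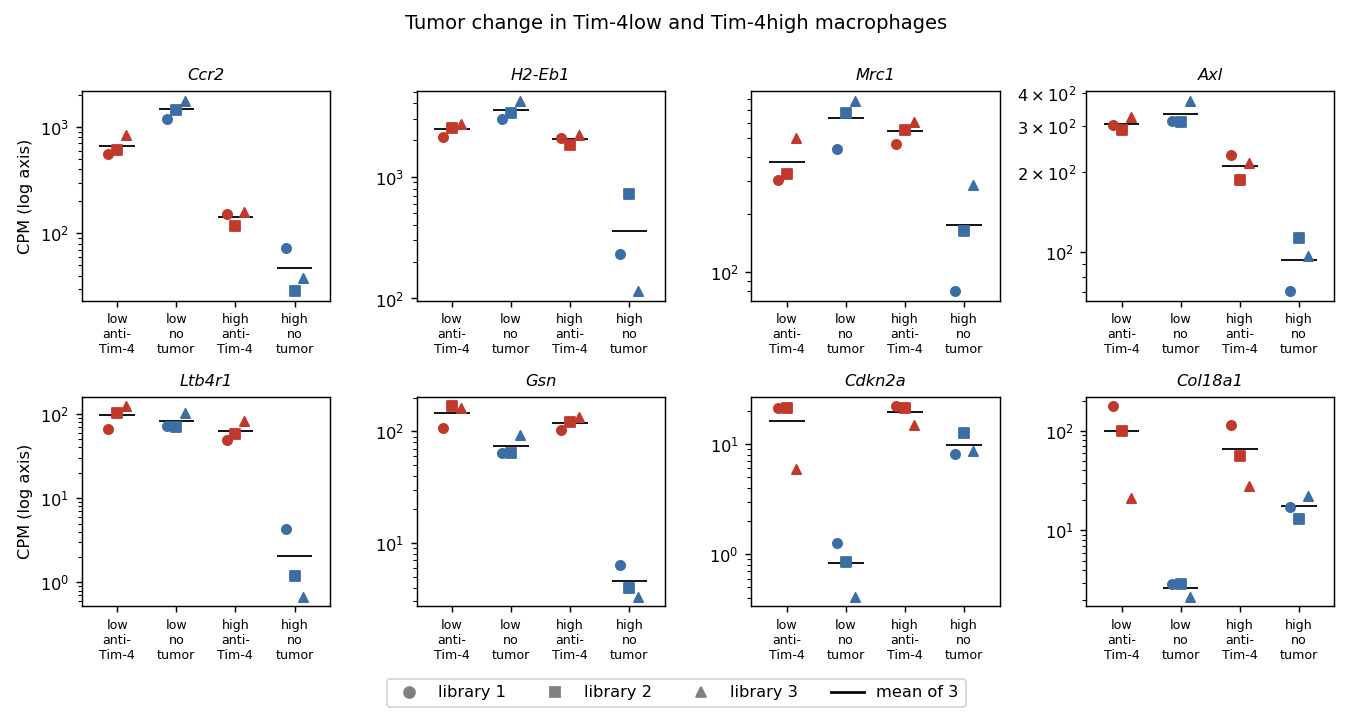
CPM on log axes of 8 genes called in the interaction, with Tim-4low anti-Tim-4 tumor, Tim-4low no tumor, Tim-4high anti-Tim-4 tumor and Tim-4high no tumor from left to right and a bar at the mean of 3. For Ccr2, H2-Eb1, Mrc1, Axl, Ltb4r1 and Gsn the Tim-4high no-tumor libraries are the lowest, and for Cdkn2a and Col18a1 the Tim-4low no-tumor ones are.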

How the data were processed

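Bulk RNA libraries of sorted peritoneal macrophages, kept in trizol before extraction per the labels' protocols, numbered 18, in 6 groups of 3. The authors deposited estimated counts per gene without normalization, and no values were transformed by them in this table as far as the sources used here say. STAR, DESeq2 and the build mm10 are named, without versions, per the submitters' processing notes. How reads were assigned to genes, from which annotation and with or without strand is not given in the sources used here, so near-identical copies (Hspa1a and Hspa1b, H2 genes, Chil3, Cd209 genes) and overlapping or antisense genes are uncertain. All 16609 tested genes matched GENCODE M21 on mm10 by symbol, chromosome and start, and printed ends drop 1 base from the file's stop.

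After rounding the estimates to integers, 16609 of 23511 genes passed filterByExpr. A single model of all 18 libraries was fitted in edgeR 4.0.16 under R 4.3.3, with TMM scaling and quasi-likelihood F-tests (12 residual degrees of freedom), adjusted by Benjamini-Hochberg and called under 0.05. The code was tested on simulated data. Alternatives were RLE factors, no filter, robust estimation, DESeq2 1.42.0, fits of fewer groups, a block on library number and leaving out libraries. Lists, members and tests were chosen with earlier results of these data known. Named were Timd4, 14 key genes, the 12 largest changes each way with at least 10 CPM and no overlap, up to 5 members of each list by p, up to 10 genes each way between antibodies by p, and 5 each way in the interaction. Some genes that this rule names are not reported here. Other genes, named to complete a count or to explain one, were chosen after their values were seen. Same-number Tim-4low and Tim-4high libraries deviated together within each condition, and library numbers did not pair across conditions. Pairs of replicates differed by more than sampling noise (chi-square over its degrees of freedom 10.9 to 76.6), so none were merged. The transcript table and the authors' comparison tables were not used here.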

Additional observations from a re-analysis of the deposited data

Results flagged for a closer look

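Each of these genes changed differently between the anti-Tim-4 tumor and no tumor in Tim-4low than in Tim-4high cells, by the interaction test (adjusted p under 0.05). The Tim-4low change minus the Tim-4high change was -4.66 for Ltb4r1, -4.10 for Htr7, -3.93 for Synpo, -3.74 for Gsn, -3.64 for Acvrl1, -3.04 for H2-Eb1, -2.74 for Ccr2, -2.37 for Mrc1 and -1.31 for Axl. It was 4.05 for Fscn1, 3.34 for Cd209b, 3.31 for Col18a1, 3.30 for Cdkn2a and 3.00 for Shank3. Of 21 alternative settings, Fscn1 passed in 12, Shank3 in 12, Htr7 in 13, Col18a1 in 14, Mrc1 in 14, Cd209b in 16, Cdkn2a in 18 and the other 7 in all 21. The causes were not tested.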

How the results depend on the processing

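The counts for anti-Tim-4 over no tumor (7755) and isotype over no tumor (8273) moved by less than 1.5 times under every alternative run, at 6128 and 7428 with only the 6 compared libraries, and at 6834 to 7086 and 7061 to 7585 with 1 library left out. Of the 7755, 7740 remained called in the same direction with RLE factors and 5992 with the 6 libraries alone. The 54 calls between the antibodies became 34 with no filter on low counts, 286 with DESeq2, 0 in the 9 Tim-4low libraries and 3 in the 6 compared ones (2 to 40 with 1 library left out, lowest without isotype library 1). The interaction count of 1094 became 1708 with DESeq2, 555 in the 12 compared libraries and 504 to 1386 with 1 library left out (lowest without anti-Tim-4 Tim-4low library 1). Settings chosen after seeing the data were leaving out no-tumor library 1 with isotype library 3, which gave 14 calls between the antibodies, leaving out anti-Tim-4 library 3 with no-tumor library 1, which gave 1692 interaction calls, and the block on library number within each condition (2793). Across conditions library numbers did not pair the samples (same-number correlations -0.294 to 0.16). The replicate block on number over all libraries gave 7885, 8368, 49 and 1376 calls for the 4 tests. Of the named genes' values under the alternatives, 3011 kept direction and side of the threshold, 212 were no longer past it, 41 newly passed, and 12 changed sign: with 1 library left out Timd4 over no tumor ran from -1.45 to 1.21 and Cxcl9 over isotype from -0.045 to 0.335, and the interactions of Cxcl9, Apoe and Cd274 from -3.17 to 1.90, -0.570 to 0.052 and -1.25 to 1.25, and Timd4 stood at 1.21 without no-tumor library 1 and isotype library 3 and 1.50 without no-tumor library 1 and anti-Tim-4 library 3. Of these, 1 passed the threshold, Timd4 without no-tumor library 1 and isotype library 3 (adjusted p = 0.00387). The cause was not tested. Depth limits genes near 0 CPM, such as Cd209f and Mcpt4 in the tumor libraries.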

Other observations

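Of 17 genes of the unfolded protein response, 8 rose and 3 (Ddit3, Atf4 and Ppp1r15a) fell with the anti-Tim-4 tumor over no tumor, against 11 and 3 with isotype. The shares of all tested genes with anti-Tim-4 were 23.8% higher and 22.9% lower. Hspa5, the chaperone BiP, had 1608, 1426 and 1403 CPM with anti-Tim-4, 1482, 1654 and 1546 CPM with isotype and 823, 847 and 1054 CPM without a tumor (0.70 ± 0.12 over no tumor, adjusted p = 0.000226). Sesn2, a stress-induced inhibitor of mTORC1, rose by 0.62 ± 0.10, Trib3, a pseudokinase of the same response, by 2.23 ± 0.42 and Manf, a secreted stress factor, by 0.56 ± 0.12 (adjusted p = 0.000105, 0.000522 and 0.00113), and Atf4, the factor of the integrated stress response, was at -0.90 ± 0.15 (adjusted p = 0.000158). Without anti-Tim-4 library 1 or no-tumor library 3, 2 of the 3 falls passed. Of 14 monocyte markers, 8 rose and 5 (Ccr2, F13a1, Nr4a1, Ace and Spn) fell with anti-Tim-4 (median 1.19), against 8 and 3 with isotype (median 1.22). The falls came to 3 without anti-Tim-4 library 1 and to 2 without library 2 or no-tumor library 3.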
